A study of Mus musculus with 6 samples.

Results

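SR proteins and heterogeneous nuclear ribonucleoproteins (hnRNPs) are families of RNA-binding proteins that help to decide where pre-mRNA is spliced. The 33 genes described here were taken by name from the expression table of a study of maternal sevoflurane exposure. They are the 11 Srsf genes and the 2 Tra2 genes, called the SR family (13 genes), and the 20 genes named Hnrnp, called the hnRNP family. The table lists 56198 genes and transcripts, and all 33 were among the 14518 that carry a name and averaged 1 TPM or more, and were tested (TPM, an abundance per transcript length scaled to the same total in every sample). RNA-Seq was done on the cerebral cortex of C57BL/6 mouse fetuses at E14.5, taken when the exposure of the dam ended. In the Ctr group (n = 3 samples) the dam breathed 100% O2 for 6 hrs, and in the Sevo group (n = 3 samples) 2.5% sevoflurane, an inhaled anaesthetic, for 6 hrs, with O2 making up the other 97.5% of the gas. The number of fetuses or litters behind 1 sample was not stated, so p-values measure only the spread between these samples, which may be technical.

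SR proteins carry a domain rich in arginine and serine and mostly bind enhancer sequences in exons, where they help the spliceosome to recognise the exon. The kinases SRPK and CLK phosphorylate this domain and set where in the nucleus the protein sits. Many hnRNPs coat nascent RNA and often act against SR proteins by silencing exons or splice sites, and both families also take part in mRNA export, translation and decay. Many genes of both families limit their own level by splicing in an exon with a stop codon, which sends the mRNA to nonsense-mediated decay. In the developing cortex these families help to set the exon choice that changes as progenitors become neurons.

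The libraries differed in ways that the groups do not explain. Ctr replicate 2 held 734 TPM of Ttr, a product of the choroid plexus, against 0.48 to 19.6 TPM in the other samples. Sevo replicate 2 correlated least with the rest, at 0.958 to 0.963 over all tested genes, where the other pairs of samples lay between 0.963 and 0.982. Its markers of the ganglionic eminence, the source of interneurons below the cortex, summed to 197 TPM, against 68.4 to 149 TPM in the other samples. Tubb3 (1247 to 1516 TPM) and Neurod6 (483 to 622 TPM), genes of cortical neurons, were abundant in all 6 samples, as the tissue label says. TPM keep no read depth, so no counting error can be given, and one value per gene joins all its isoforms.

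In the Sevo group 29 of the 33 genes had a negative log2 fold change, where 58.9% of all genes tested did. Not one of the 33 passed an adjusted p of 0.05 (limma on log2(TPM + 1), Benjamini-Hochberg over all genes tested), and 0.00689% of all genes did so in the lower direction, that is 1 gene outside both families. No gene passed in the higher direction, where 953 genes had an unadjusted p under 0.05. The lowest adjusted p of the families was 0.0746 (limma), shared by Hnrnpa2b1, Hnrnpm, Hnrnph3 and Srsf6. At an unadjusted p under 0.05 (limma), 16 of the 33 (48.5%) were lower in the Sevo group and 0 were higher, where 12.8% of all genes tested were lower and 6.56% higher. All 3 Sevo samples lay below all 3 Ctr samples in 19 of the 33 (57.6%), where 17.7% of all genes tested did, and above them in 0, where 9.43% did. The other 14 overlapped. The median log2 fold change was -0.20 over the 33 genes and -0.06 over all genes tested. After every sample was centred on its median, 9 of the 33 were lower and 1 higher, and all genes tested then split into 892 lower and 1689 higher, against 1859 and 953 without centring.

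**Figure D1:**
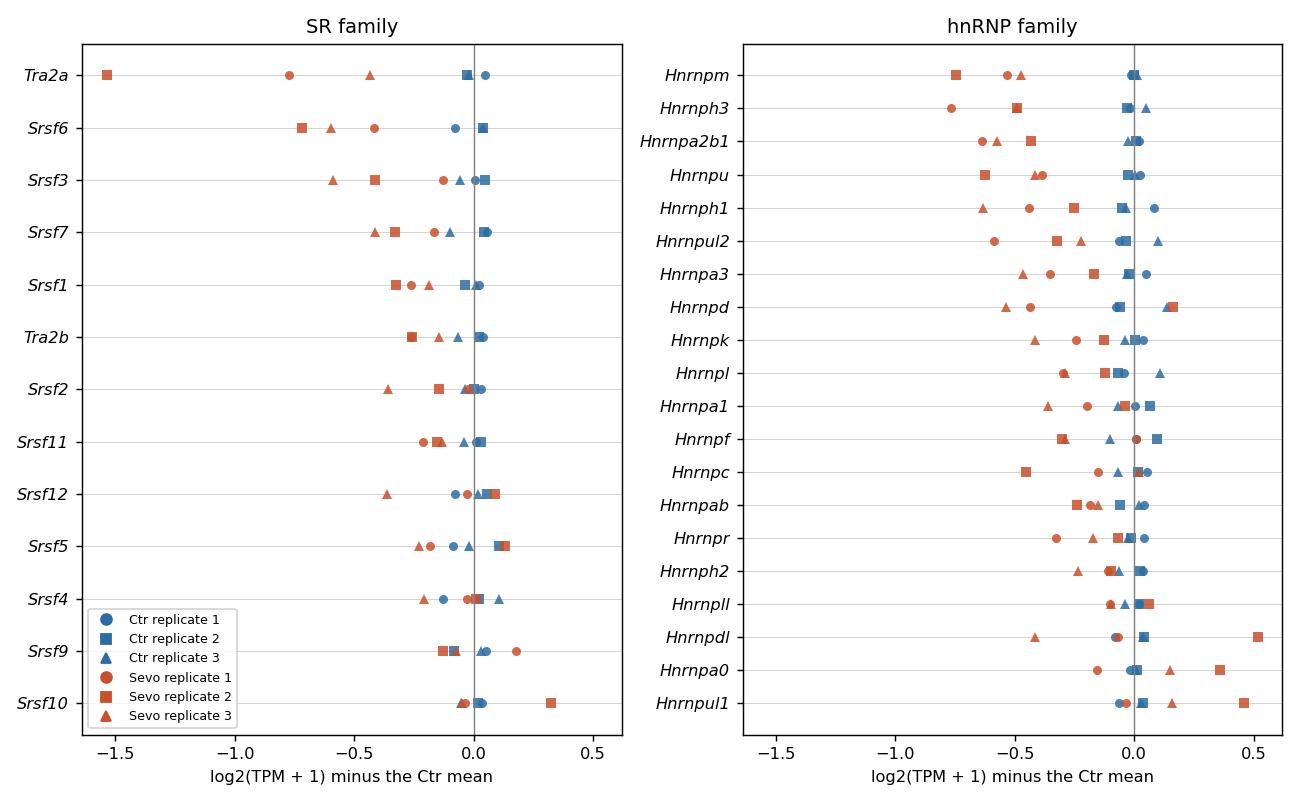
Level of each SR gene (left) and hnRNP gene (right) in every sample, as log2(TPM + 1) minus the mean of the 3 Ctr samples, with genes ordered by their log2 fold change. Blue points are Ctr samples and red points Sevo samples, with a marker shape for each replicate number. In 19 rows all red points lie left of all blue points, and Tra2a has the lowest red point, from Sevo replicate 2.

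Leaving out Ctr replicate 2 gave 15 of the 33 lower at an unadjusted p under 0.05 (limma), where 7.98% of all genes tested were lower in the same fit. Leaving out Sevo replicate 2 gave 20, where 15.5% of all genes tested were lower. In bulk cortex, fewer cells that express a gene and less of its RNA per cell cannot be told apart. Radial glial progenitors, which are among the dividing cells of the cortex, had marker sums of 2775 to 2953 TPM in the Ctr samples and 2317 to 2582 TPM in the Sevo samples. Of their 15 markers, 3 were lower and 2 higher at an unadjusted p under 0.05 (limma), and none was at 0 in any sample. Beside this and the marker counts below, 12.8% of all genes tested were lower and 6.56% higher in the same fit of all 6 samples. Fabp7, a fatty acid-binding protein, and Vim, an intermediate filament protein, made up most of the radial glial sum. Fabp7 was at 1158, 1179.7 and 1037 TPM in the Ctr samples, against 762, 971 and 874 TPM in the Sevo samples, with a log2 fold change of -0.38 ± 0.11 (SE, adjusted p = 0.137, limma). Vim overlapped, with a log2 fold change of -0.29 ± 0.13 (SE). The marker with the lowest p stood the other way, as Mfge8, a secreted glycoprotein, was at 78.8, 84.1 and 83.8 TPM in the Ctr samples, against 138, 134 and 129 TPM in the Sevo samples. This gave a log2 fold change of 0.70 ± 0.08 (SE, adjusted p = 0.0746, limma). The mean log2(TPM + 1) over the 15 markers, in which each gene counts alike, overlapped between the groups, at 6.44 to 6.51 in the Ctr samples and 6.24 to 6.49 in the Sevo samples. The 10 markers of intermediate progenitors summed to 1218 to 1249 TPM in the Ctr samples and 829.6 to 1231 TPM in the Sevo samples, with 2 lower and 0 higher, and the 12 markers of cortical neurons to 3362 to 3838 and 3305 to 3937 TPM, with 1 lower and 0 higher. Those lower without overlap included Eomes of the intermediate progenitors (log2 fold change -0.38 ± 0.12, SE) and Tbr1 of the neurons (-0.49 ± 0.11, SE), which had the lowest p of their lists. The part of these markers in the results on the 33 genes was not tested.

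Among the SR genes, Srsf5, Srsf2 and Srsf1, which bind exonic enhancers, were the most abundant. Srsf5 was at 386, 442 and 405 TPM in the Ctr samples, against 362, 449 and 350.4 TPM in the Sevo samples. These groups overlapped, with a log2 fold change of -0.09 ± 0.11 (SE, adjusted p = 0.686, limma). Srsf2, a protein of nuclear speckles, was at 405, 396 and 386 TPM in the Ctr samples, against 389, 358 and 308 TPM in the Sevo samples. Only Sevo replicate 1 reached the range of the Ctr samples, and the log2 fold change was -0.18 ± 0.10 (SE, adjusted p = 0.365, limma). Srsf1, the founding member of the family, was at 402, 386 and 398 TPM in the Ctr samples, against 329, 315 and 347 TPM in the Sevo samples. Every Sevo sample of Srsf1 was below every Ctr sample, with a log2 fold change of -0.26 ± 0.07 (SE, adjusted p = 0.141, limma).

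Srsf6, a regulator of alternative exons that is related to Srsf4 and Srsf5, had the lowest p of the SR family. It was at 248, 269.8 and 269.5 TPM in the Ctr samples (263 ± 12.3, SD, n = 3), against 196, 159 and 173 TPM in the Sevo samples (176 ± 18.9, SD, n = 3). The lowest Ctr sample was well above the highest Sevo sample. Its log2 fold change was -0.58 ± 0.10 (SE, adjusted p = 0.0746, limma), and the exact permutation p was 0.1, the smallest that 3 samples against 3 allow and the value for every gene whose groups did not overlap. Its relative Srsf4 overlapped, at 120.5 to 142 TPM in the Ctr samples and 114 to 133 TPM in the Sevo samples, as did Srsf5.

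Tra2a and Tra2b, homologues of the fly sex-determination factor transformer-2, activate exons rich in GA and bind the same motifs. Tra2a was at 209, 198 and 199 TPM in the Ctr samples (202 ± 5.69, SD, n = 3), against 118, 69.0 and 149 TPM in the Sevo samples (112 ± 40.4, SD, n = 3). The Ctr samples lay close together and the Sevo samples far apart, with Sevo replicate 2 lowest. Its log2 fold change of -0.91 ± 0.24 (SE, adjusted p = 0.128, limma) was the most negative of the 33, and without Sevo replicate 2 it was -0.60. Tra2b lay at 218 to 234 TPM in the Ctr samples and 190.1 to 206 TPM in the Sevo samples, with a log2 fold change of -0.22 ± 0.08 (SE, adjusted p = 0.187, limma).

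Srsf3 and Srsf7, small SR proteins that also couple splicing to mRNA export, were lower in every Sevo sample than in any Ctr sample. Srsf3 lay at 383 to 412 TPM in the Ctr samples and 264 to 365 TPM in the Sevo samples (log2 fold change -0.38 ± 0.12, SE). Srsf7 lay at 364 to 405 TPM and 292 to 347 TPM (-0.30 ± 0.09, SE). Srsf11, which takes part in the splicing of neuronal microexons, lay at 191 to 201 TPM in the Ctr samples and 169.7 to 179 TPM in the Sevo samples, a narrow spread in both groups with a log2 fold change of -0.17 ± 0.07 (SE, adjusted p = 0.265, limma). Srsf10, which represses splicing when dephosphorylated, had the most positive log2 fold change of the SR family. It was at 175, 173 and 165 TPM in the Ctr samples, against 166, 214 and 165 TPM in the Sevo samples. Sevo replicate 2 alone was above the Ctr samples, and the log2 fold change of 0.08 ± 0.11 (SE, adjusted p = 0.744, limma) turned to -0.04 without it. Srsf9, a relative of Srsf1, lay at 90.8 to 100.0 TPM and 88.1 to 109 TPM, and Srsf12, a relative of Srsf10 and the rarest of the 33, at 8.25 to 9.16 TPM and 6.59 to 9.38 TPM.

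The hnRNP A/B proteins, which package nascent RNA and silence exons, included the most abundant of the 33 genes. Hnrnpa1, the usual antagonist of Srsf1 in splice-site choice, was at 2019, 2107 and 1923 TPM in the Ctr samples, against 1758, 1959.7 and 1568 TPM in the Sevo samples. Sevo replicate 2 lay within the range of the Ctr samples, and the log2 fold change was -0.20 ± 0.10 (SE, adjusted p = 0.304, limma). Hnrnpa2b1, its close paralogue that also guides RNA transport along neurites, had the lowest p of the 33. It was at 1797, 1781 and 1740.0 TPM in the Ctr samples (1773 ± 29.6, SD, n = 3), against 1138, 1314 and 1189.7 TPM in the Sevo samples (1214 ± 90.5, SD, n = 3). Every Sevo sample lay far below the Ctr samples, and the 31.5% lower mean came with a log2 fold change of -0.55 ± 0.08 (SE, adjusted p = 0.0746, limma). Hnrnpa3 lay at 617 to 652 TPM in the Ctr samples and 456 to 560.3 TPM in the Sevo samples (log2 fold change -0.33 ± 0.09, SE), again without overlap. Hnrnpa0, a gene with a single exon block in the annotation, had a positive log2 fold change of 0.12 ± 0.13 (SE), with 434 to 443 TPM in the Ctr samples and a wider 395 to 565 TPM in the Sevo samples. Hnrnpab lay at 1001 to 1071 TPM and 883 to 939 TPM, without overlap.

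Hnrnpa2b1, Srsf6 and Tra2a, the hnRNP and the SR gene with the lowest p and the gene with the most negative log2 fold change, are shown with the 250 bases before their start sites, where transcription of these genes is set up. The sequences are those of RefSeq on GRCm38.p6, for Hnrnpa2b1 at chr6:51469895-51470144 on the minus strand, for Srsf6 at chr2:162931258-162931507 on the plus strand and for Tra2a at chr6:49264053-49264302 on the minus strand. Capitals mark matches, on either strand, to the CCAAT box (CCAAT), the GC box (GGGCGG) and the cAMP response element (TGACGTCA).
Hnrnpa2b1: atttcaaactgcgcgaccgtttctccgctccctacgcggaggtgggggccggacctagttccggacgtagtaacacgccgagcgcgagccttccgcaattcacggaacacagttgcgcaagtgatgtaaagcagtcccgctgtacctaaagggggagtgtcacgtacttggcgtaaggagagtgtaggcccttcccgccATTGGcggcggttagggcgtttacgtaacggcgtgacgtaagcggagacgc
Srsf6: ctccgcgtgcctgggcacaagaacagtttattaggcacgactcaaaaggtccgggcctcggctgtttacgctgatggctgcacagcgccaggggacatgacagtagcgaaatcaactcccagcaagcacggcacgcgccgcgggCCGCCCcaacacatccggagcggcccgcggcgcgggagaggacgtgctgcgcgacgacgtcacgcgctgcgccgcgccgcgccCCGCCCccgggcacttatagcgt
Tra2a: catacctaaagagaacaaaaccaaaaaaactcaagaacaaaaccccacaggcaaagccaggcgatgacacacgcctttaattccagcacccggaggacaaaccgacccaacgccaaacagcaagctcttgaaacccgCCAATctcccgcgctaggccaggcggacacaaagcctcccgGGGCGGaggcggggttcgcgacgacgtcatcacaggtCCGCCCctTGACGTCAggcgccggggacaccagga

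RefSeq promoter windows, from 250 bases before to 50 bases after the start, were at hand for 31 of the 33 genes, with Hnrnpll and Hnrnpul2 as the others. The 31 windows had a median GC content of 65%, against 61.3% in the 10349 windows of tested genes. The CCAAT box was in 17 of the 31 (54.8%), against 39.4% of tested and 38.02% of all 27025 windows, and by family in 5 of 13 SR and 12 of 18 hnRNP windows. The GC box was in 25 (80.65%), against 65.9% of tested and 35.9% of all windows. The TATA box (TATAAA) was in 4 windows (12.9%), those of Hnrnpab, Hnrnpm, Srsf2 and Srsf3, against 6.50% of tested windows. The ETS motif (CCGGAAG) was in 6 windows (19.4%, against 18.3%) and the E-box (CACGTG) in 4 (12.9%, against 10.1%), while the cAMP response element was in that of Tra2a alone (3.23%, against 3.36%). Both strands were searched, no matches share a base in the sequences shown, and a match is a description of the letters only. Srsf6 has no CCAAT box and Hnrnpa2b1 no GC box in the window used, so no motif is in all 3 of the sequences shown. RefSeq has 2 windows for Hnrnpa2b1, of which 1 was searched.

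The hnRNP H and F proteins bind runs of G. Hnrnph1 lay at 1135 to 1248 TPM in the Ctr samples and 759 to 989 TPM in the Sevo samples, with a log2 fold change of -0.44 ± 0.11 (SE, adjusted p = 0.114, limma). Hnrnph3 was at 227, 225 and 238 TPM in the Ctr samples (230 ± 6.85, SD, n = 3), against 134, 163 and 163 TPM in the Sevo samples (153 ± 16.6, SD, n = 3). All Sevo values of Hnrnph3 were well below the Ctr values, with a log2 fold change of -0.58 ± 0.10 (SE, adjusted p = 0.0746, limma). Hnrnph2 lay at 123 to 132 TPM and 109 to 119.6 TPM (log2 fold change -0.15 ± 0.08, SE), a small gap without overlap. Hnrnpf overlapped, at 350.2 to 402 TPM in the Ctr samples and 305 to 379 TPM in the Sevo samples.

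Hnrnpm, which binds GU-rich RNA, had the most negative log2 fold change of the hnRNP family. It was at 356, 359 and 362 TPM in the Ctr samples (359 ± 3.17, SD, n = 3), against 248, 214 and 258 TPM in the Sevo samples (240 ± 23.3, SD, n = 3). The Ctr samples were nearly equal, every Sevo sample was far below them, and the log2 fold change was -0.58 ± 0.09 (SE, adjusted p = 0.0746, limma). Hnrnpu, also called scaffold attachment factor A, which binds chromatin and RNA, lay at 459.8 to 476 TPM in the Ctr samples and 303 to 357 TPM in the Sevo samples. Its log2 fold change was -0.48 ± 0.09 (SE, adjusted p = 0.07495, limma). Its relatives Hnrnpul1 and Hnrnpul2 take part in the repair of DNA breaks in human cells. Hnrnpul2 lay at 71.6 to 80.4 TPM in the Ctr samples and 49.6 to 64.05 TPM in the Sevo samples, without overlap. Hnrnpul1, the gene with the most positive log2 fold change of the 33 (0.19 ± 0.13, SE, adjusted p = 0.449, limma), was at 106, 113 and 113 TPM in the Ctr samples, against 108, 153 and 123 TPM in the Sevo samples. Sevo replicate 2 was its highest sample and replicate 1 lay among the Ctr samples. Without Sevo replicate 2 the value was 0.06, and without Sevo replicate 3 Hnrnpdl (0.23) was more positive than Hnrnpul1 (0.21).

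Hnrnpk, which binds C-rich RNA and DNA through KH domains, was at 1178, 1152 and 1120.0 TPM in the Ctr samples, against 970.4, 1054 and 862 TPM in the Sevo samples. The gap between the groups was smaller than the range of the Sevo samples, with a log2 fold change of -0.26 ± 0.09 (SE, adjusted p = 0.183, limma). Hnrnpl, which binds CA repeats, lay at 346 to 391 TPM and 294 to 333 TPM without overlap, whereas its relative Hnrnpll overlapped at 76.5 to 79.9 TPM and 73.3 to 82.2 TPM. Hnrnpr, which takes part in axonal RNA transport in motor neurons, lay at 171 to 179 TPM in the Ctr samples and 139 to 166 TPM in the Sevo samples. Hnrnpd, also called AUF1, which binds AU-rich elements and affects mRNA decay, its relative Hnrnpdl and Hnrnpc, which binds U tracts, all overlapped. In Hnrnpdl the Ctr samples lay at 384 to 418 TPM and the Sevo samples spread from 304 to 581 TPM, and in Hnrnpd from 415 to 481 and from 302 to 489.7 TPM, with Sevo replicate 2 highest in both. In Hnrnpc, at 543 to 591 and 416 to 577 TPM, Sevo replicate 2 was lowest.

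The spread of the Sevo samples was wider than that of the Ctr samples in 31 of the 33 genes, and in 74.9% of all genes tested. The median SD on the log2 scale was 0.06 in the Ctr group and 0.16 in the Sevo group for the 33 genes, and 0.12 and 0.22 for all genes tested. Among the Sevo samples, replicate 2 was the highest in 18 of the 33 genes and the lowest in 9. This order was not counted over all genes tested, so it need not be particular to the 33. Hnrnpdl, Hnrnpd, Hnrnpul1, Srsf10 and Hnrnpa0 were the genes in which replicate 2 stood highest above the mean of the other Sevo samples. Tra2a, Hnrnpc, Hnrnpm, Hnrnpu and Srsf6 were those in which it stood lowest. The part of the ganglionic eminence markers of this sample in that order was not tested.

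The SR and hnRNP families gave similar values. The median log2 fold change was -0.18 over the 13 SR genes and -0.22 over the 20 hnRNP genes, with 12 and 17 negative values. At an unadjusted p under 0.05 (limma) 6 and 10 genes were lower, and 7 and 12 genes lay below the Ctr samples without overlap. Over all genes tested the median was -0.06, with 12.8% lower and 17.7% below without overlap. Summed over the family, the SR genes held 3291, 3345 and 3229 TPM in the Ctr samples, against 2879, 2771 and 2647 TPM in the Sevo samples, a mean 15.9% lower in the Sevo group. The hnRNP genes held 12144, 12014 and 11861 TPM in the Ctr samples, against 9661, 10709 and 9343 TPM in the Sevo samples, a mean 17.5% lower. In both families every Sevo sum was below every Ctr sum. Together the 33 genes made up 1.51% to 1.54% of all TPM in the Ctr samples and 1.20% to 1.35% in the Sevo samples. A difference between the 2 families was not tested, since members of a family are not replicates. Median centring of the samples brought both median log2 fold changes nearer to 0, to -0.0775 (SR) and -0.120 (hnRNP). The median over all genes tested moved with them, from -0.06 to 0.0369, as centring shifts every gene alike. Without Sevo replicate 2, and without centring, the medians were -0.20 for the SR family, -0.29 for the hnRNP family and -0.06 over all genes tested.

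**Figure D2:**
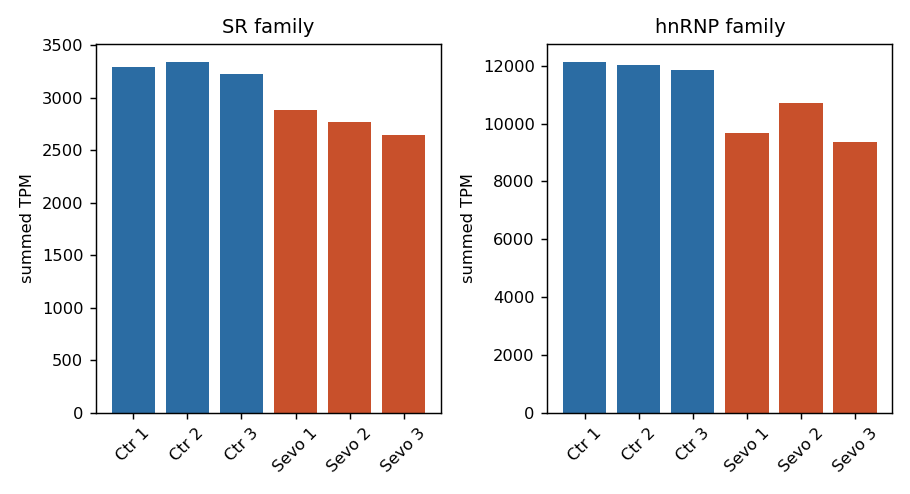
Summed TPM of the 13 SR genes (left) and of the 20 hnRNP genes (right), with 1 bar for each sample and both axes starting at 0. Every red bar (Sevo) is shorter than every blue bar (Ctr), and the highest Sevo sum of the hnRNP family, 10709 TPM, is that of replicate 2.

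The SR and hnRNP genes are abundant in the cortex, with 19 of the 33 among the 500 most abundant named genes. Of the 29 with a mean of at least 100 TPM, 15 were lower at an unadjusted p under 0.05 (limma) and 18 had no overlap, where 13.7% and 16.9% of all 1471 genes of that level did. The 4 genes with a mean of 1000 TPM or more, Hnrnpa1, Hnrnpa2b1, Hnrnpk and Hnrnph1, had a median log2 fold change of -0.35, and the 133 genes of that level one of 0.14. Those 133 include most of the 15 cytosolic ribosomal protein genes listed below, whose median was 0.23. From 300 to 1000 TPM the median was -0.22 over 14 members and 0.01 over 285 genes, and from 100 to 300 TPM it was -0.19 over 11 members and -0.04 over 1053 genes. Below 100 TPM the 4 members Hnrnpll, Hnrnpul2, Srsf9 and Srsf12 had a median of -0.07, beside -0.07 over the 13047 genes of that level. Spearman's rho between mean level and log2 fold change was -0.25 across the 33 genes, -0.34 across the SR and -0.20 across the hnRNP genes, and -0.08 across all genes tested. These are descriptions across genes that share the same 6 libraries, and the genes are not independent of each other.

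**Figure D3:**
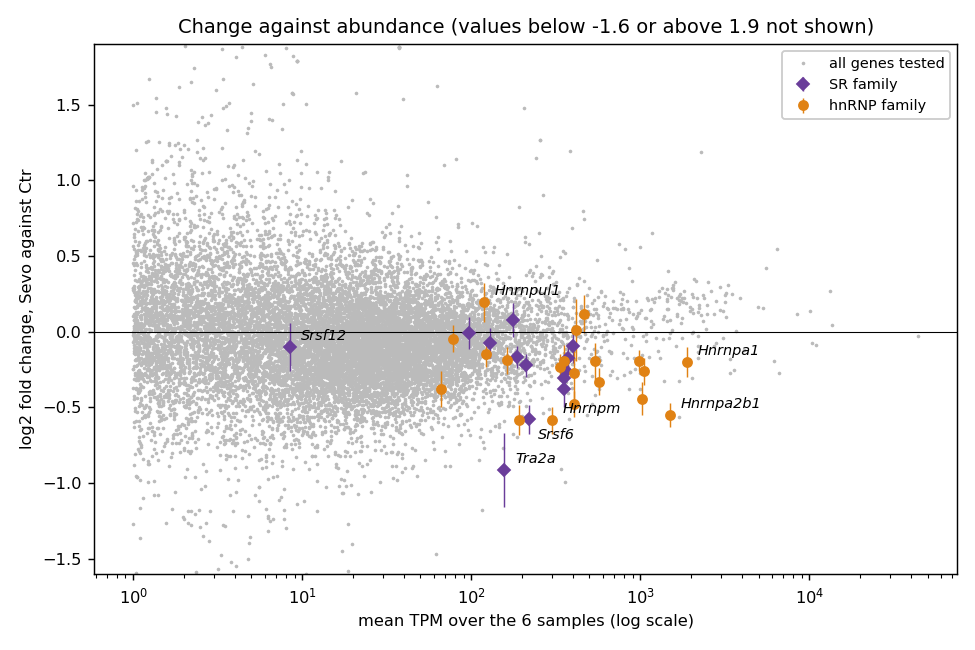
Log2 fold change of Sevo against Ctr, on the log2(TPM + 1) scale, plotted against the mean TPM of the 6 samples on a log axis. Grey points are the 14518 genes tested, purple diamonds the SR and orange circles the hnRNP genes, each with its SE as a bar. Most coloured points lie below 0, with Tra2a lowest at -0.91 and Hnrnpul1 highest at 0.19, and Srsf12 stands alone at the left.

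Ratios between relatives within a sample depend little on how the sample was scaled. Log2 ratios were taken on TPM + 1, and values given as times on TPM alone. Of 18 ratios compared, 10 had groups that did not overlap, with 7 lower and 3 higher in the Sevo group. Each of these 10 had the smallest exact permutation p of 0.1 (two-sided), or 0.18 after adjustment over the 18. The pairs were chosen with earlier results of these data known. The 10 have no baseline, as no share over other gene pairs was taken. Some, such as Srsf4 to Srsf6, set a gene without overlap against a relative whose groups overlapped. Tra2a was 0.89, 0.86 and 0.91 times Tra2b in the Ctr group and 0.62, 0.36 and 0.72 times in the Sevo group, a difference of -0.69 in the log2 ratio that was -0.40 without Sevo replicate 2. Hnrnpa2b1 was 0.89, 0.85 and 0.90 times Hnrnpa1 in the Ctr group and 0.65, 0.67 and 0.76 times in the Sevo group, a difference of -0.35. Hnrnpul1 was 1.48, 1.55 and 1.40 times Hnrnpul2 in the Ctr group and 2.17, 2.56 and 1.93 times in the Sevo group, a difference of 0.57. In each of these 3 ratios the groups did not overlap. The log2 ratio of Srsf4 to Srsf6 differed by 0.50 and that of Srsf5 to Srsf6 by 0.48, or by 0.30 without Sevo replicate 2. Hnrnph1 to Hnrnph2 differed by -0.29, Hnrnpd to Hnrnpdl by -0.28, Srsf1 to Srsf9 by -0.25, Hnrnpl to Hnrnpll by -0.19 and Hnrnpa3 to Hnrnpa1 by -0.13. The value for Srsf1 to Srsf9 was -0.16 without Sevo replicate 1, and that for Hnrnpl to Hnrnpll -0.12 without Ctr replicate 3. Ratios that share a gene, such as those to Hnrnpa1 or Srsf6, are not independent.

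The ratio of the antagonists Srsf1 and Hnrnpa1 overlapped between the groups. Srsf1 was 0.199, 0.183 and 0.207 times Hnrnpa1 in the Ctr group and 0.187, 0.161 and 0.221 times in the Sevo group, a difference of -0.06 in the log2 ratio (exact permutation p = 0.8), which was smaller than the SD of 0.23 among the Sevo samples and turned to 0.05 without Sevo replicate 2. Srsf2 to Hnrnpa1 differed by 0.02 (exact permutation p = 0.9) and Srsf3 to Srsf7 by -0.07 (exact permutation p = 0.3). These p-values do not show that the ratios were equal, as with 3 samples against 3 none could pass 0.05. The other overlapping ratios were Hnrnpa0 to Hnrnpa1 (0.32), Hnrnpr to Syncrip (0.28), Srsf10 to Srsf12 (0.18), Hnrnph1 to Hnrnpf (-0.25) and Hnrnpd to Hnrnpab (-0.08), each given as the difference in the log2 ratio.

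**Figure D4:**
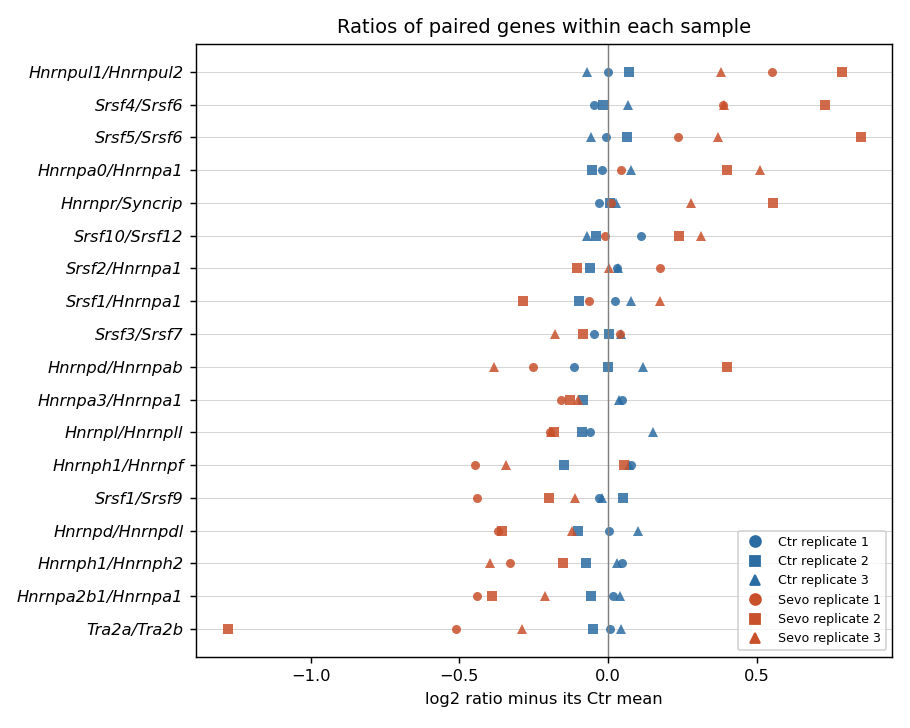
Log2 ratio of 18 gene pairs in each sample, minus the mean of the Ctr samples, with pairs ordered by the difference between the groups. Blue points are Ctr and red points Sevo samples, with a marker shape for each replicate number. Tra2a/Tra2b lies furthest left and Hnrnpul1/Hnrnpul2 furthest right, and Srsf1/Hnrnpa1 straddles 0.

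The annotation shows what 1 value per gene joins. In GENCODE M21, 21 of the 33 genes (63.6%) have a transcript marked for nonsense-mediated decay, namely 11 of 13 SR genes (84.6%) and 10 of 20 hnRNP genes, against 28.9% of the protein-coding genes tested. A transcript with a retained intron is annotated for 24 (72.7%), against 58.9%. Between the number of such transcripts and the log2 fold change, Spearman's rho was -0.30 across the 33 genes and -0.07 across all genes tested, and for exon length it was -0.22 and -0.16, both as descriptions only. The TPM cannot say whether productive or decay-bound isoforms differ. Exon bases shared with another gene occur in 14 of the 33, such as 1169 bases between Hnrnpm and March2, 804 between Hnrnpu and Cox20, 748 between Srsf2 and its neighbours Mettl23 and Mfsd11, and 115 between Hnrnph3 and Rufy2. Hnrnpa2b1, Srsf6 and Tra2a share none, and such overlaps were not counted over all genes tested. Hnrnpa1 and other members also have processed pseudogenes, and how reads shared with these were counted was not stated, so such values are uncertain.

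Of 11 tested genes that start on the other strand within 1000 bases of a member, 1 was below and 1 above the Ctr samples without overlap, shares no larger than the 17.7% and 9.43% of all genes tested. Ttc9c, which starts 677 bases from Hnrnpul2, was at 44.6, 46.5 and 46.7 TPM in the Ctr samples, against 26.1, 31.9 and 30.0 TPM in the Sevo samples, with a log2 fold change of -0.64 ± 0.11 (SE, adjusted p = 0.0746, limma). Cbx3, a heterochromatin protein gene that starts 466 bases from Hnrnpa2b1, was at 362, 351 and 327 TPM in the Ctr samples, against 343, 337 and 317 TPM in the Sevo samples. Its log2 fold change of -0.06 ± 0.08 (SE) stands beside the -0.55 ± 0.08 (SE) of Hnrnpa2b1, and its groups overlapped. The neighbour above the Ctr samples was 4930524J08Rik beside Hnrnpd, at 2.30 to 3.21 TPM in the Ctr samples and 3.92 to 5.47 TPM in the Sevo samples.

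Other genes of the same pathway are given by lists. Of 15 measured kinases, phosphatase subunits and transport factors of SR proteins, 6 were lower and 1 higher at an unadjusted p under 0.05 (limma), with a median log2 fold change of -0.19. Srpk1, a cytoplasmic kinase that primes SR proteins for nuclear import, was at 67.7, 68.9 and 70.6 TPM in the Ctr samples, against 52.5, 49.96 and 50.7 TPM in the Sevo samples. Its log2 fold change was -0.43 ± 0.08 (SE, adjusted p = 0.0855, limma), without overlap. Clk1, a nuclear kinase of SR proteins, was chosen after its values were seen and was at 146, 150.1 and 147 TPM in the Ctr samples, against 88.4, 116 and 62.6 TPM in the Sevo samples (log2 fold change -0.77 ± 0.20, SE, adjusted p = 0.121, limma). The most abundant of this list, the phosphatase catalytic subunits Ppp1ca and Ppp1cc, overlapped, with log2 fold changes of 0.07 and 0.09. Srpk3 had a mean below 1 TPM and was not tested.

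Among 30 SR-related proteins and spliceosome factors with an RS domain, 12 were lower and 0 higher (median -0.23). Snrnp70, the U1 snRNP protein that SR proteins contact, had a log2 fold change of -0.37 ± 0.11 (SE), Rbm39 one of 0.00 ± 0.11 (SE) and Bclaf1, which had the lowest p of this list, one of -0.39 ± 0.09 (SE, adjusted p = 0.111, limma). Among 25 hnRNP proteins under other names and their relatives, 12 were lower and 1 higher (median -0.27). Sfpq, a paraspeckle protein needed for long neuronal transcripts, was at 474, 465 and 479 TPM in the Ctr samples, against 210.1, 196 and 325 TPM in the Sevo samples. Its log2 fold change of -0.99 ± 0.18 (SE, adjusted p = 0.0746, limma) was more negative than that of any of the 33 genes. Its partner Nono had a log2 fold change of -0.38 ± 0.07 (SE), and Pcbp2, a poly(C)-binding protein, one of -0.06 ± 0.09 (SE).

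Of 15 nonsense-mediated decay factors, 8 were lower and 0 higher (median -0.31), with Upf3b, which binds the exon junction complex, at -0.56 ± 0.09 (SE, adjusted p = 0.0746, limma), Eif4a3 at -0.17 and Magoh at -0.04. Of 25 core snRNP proteins, 7 were lower and 1 higher (median -0.14), with Prpf31 of the tri-snRNP at -0.56 ± 0.08 (SE, adjusted p = 0.0746, limma), Snrpe at 0.10 and Snrpb at 0.02. Of 15 cytosolic ribosomal proteins, 0 were lower and 12 higher (median 0.23), so that most of these abundant genes had values above 0. All counts of these lists are at an unadjusted p under 0.05 (limma), beside the 12.8% lower and 6.56% higher of all genes tested.

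**Figure D5:**
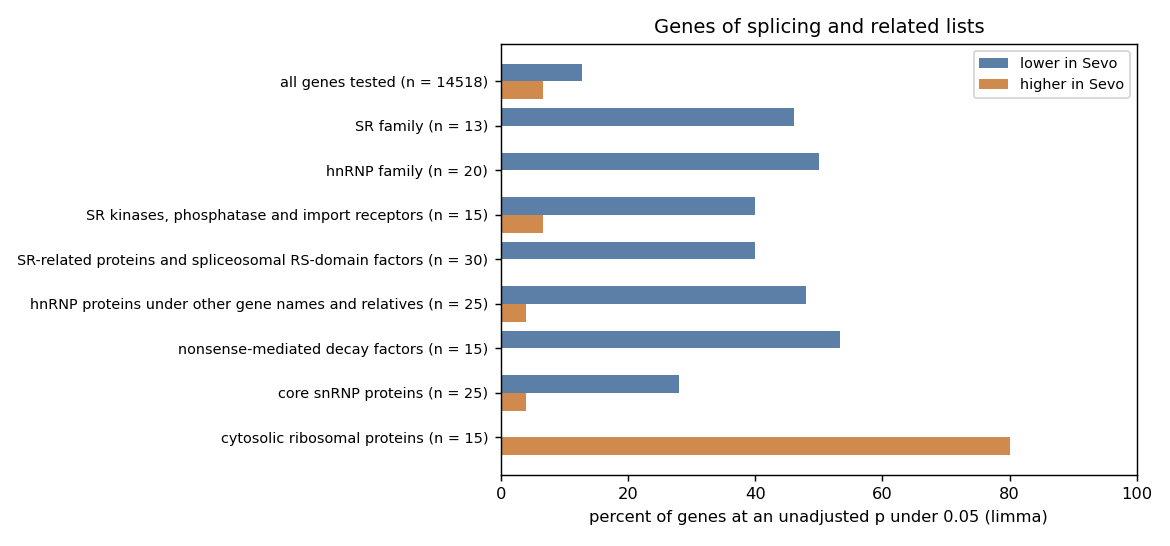
Percent of genes at an unadjusted p under 0.05 (limma) that were lower (blue) or higher (orange) in the Sevo group, for all genes tested, both families and lists of related genes, with the number tested in brackets. The SR family has 6 of 13 and the hnRNP family 10 of 20 genes lower and none higher, and the ribosomal list has 12 of 15 higher and none lower.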

How the data were processed

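Total RNA of the fetal cortex was sequenced, and the authors deposited TPM per gene and sample, rounded to 2 decimals, for 3 Ctr and 3 Sevo samples. Bowtie 0.12.2, edgeR and the builds mm8 and mm10 stand in the submitters' notes, with no role. The paper's methods name DESeq2, which needs counts, so the TPM were compared as log2(TPM + 1) with limma 3.58.1 in R 4.3.3 (eBayes with a trend on abundance, two-sided, Benjamini-Hochberg). The fit covered the 14518 genes that carry a name and averaged 1 TPM or more. It was also run on simulated data, with genes drawn independently and most added shifts larger than any change of a member. Such data do not show how the fit does on changes of the size seen here. Ratios were tested by exact permutation over the 10 splits of 6 samples. The software behind the TPM and the read depth are not given in the sources used here. All 6 values were given for the members with the 3 highest means, the 3 lowest p-values and the most positive and most negative log2 fold change in each family. From the lists of splicing and decay factors, the 2 most abundant genes and that with the lowest p were taken. Genes named beyond this, and which marker and long RNA genes to name, were chosen after their values were seen. Members, lists, pairs and tests were chosen with earlier results of these data known. Gene models are those of GENCODE M21 on GRCm38, which need not be those behind the TPM. Tables used pandas 2.3.3 in Python 3.11.15, permutations SciPy 1.17.1 and plots matplotlib 3.10.9. Alternatives were other pseudocounts, filters, scalings, eBayes settings, sample weights, a replicate block, each sample left out, and, added after seeing the data, a loess correction for exon length.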

Additional observations from a re-analysis of the deposited data

How the results depend on the processing

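Under 18 alternatives, the 33 genes gave 594 log2 fold changes, of which 18 in 8 genes had the other sign and 0 crossed an adjusted p of 0.05 (limma). The lowest adjusted p of a member over the alternatives was 0.0564, with sample weights. The other 25 genes kept their sign. Other gene filters, the replicate block and other eBayes settings leave the log2 fold changes unchanged by design, so no sign could turn there. Median centring left 9 members and 6.14% of all genes tested lower at an unadjusted p under 0.05 (limma). Its medians were -0.0775 for the SR family, -0.120 for the hnRNP family and 0.0369 over all genes tested. It gave Hnrnpll 0.0522, Srsf5 0.0042, Srsf4 0.0220 and Srsf9 0.0904. Quantile normalization gave Hnrnpll 0.0261 and Srsf9 0.0373, sample weights gave Hnrnpdl -0.0887 and Srsf9 0.0306, and the loess correction gave Hnrnpll 0.0110. Genes past an adjusted p of 0.05 (limma) were 2 with sample weights and 1 to 7 with 1 sample left out, with 7 without Sevo replicate 1. With 1 sample left out, 12 to 20 members and 7.48% to 15.5% of all genes tested were lower, the hnRNP median lay between -0.29 and -0.20, and the log2 fold changes spanned -0.241 to 0.225 for Hnrnpdl, -0.100 to 0.0523 for Srsf9, -0.00242 to 0.255 for Hnrnpa0, -0.0439 to 0.144 for Srsf10 and -0.194 to 0.0314 for Srsf12. The cause was not tested. Of 126 ratio values, 0 moved by 1 SD or more. Leaving out 1 of 3 samples cannot move a group mean that far, and the other values changed only the pseudocount. That count therefore cannot show whether the ratios are stable. With 1 sample left out, the log2 ratio of Tra2a to Tra2b spanned -0.90 to -0.40, and those of Srsf1 to Hnrnpa1 (-0.18 to 0.05), Srsf2 to Hnrnpa1 (-0.05 to 0.09) and Hnrnpd to Hnrnpab (-0.32 to 0.07) took both signs. The deviations of samples with the same replicate number had correlations of -0.016, 0.021 and 0.015, where those of other pairs ran from -0.118 to 0.118. Whether such samples share more than a number cannot be told from these few values. The fit with the replicate number as a block gave 17 members and 12.3% of all genes tested lower. In it 1 gene and 0 members passed an adjusted p of 0.05 (limma), and the family medians cannot change with such a block. TPM without read depth set no limit by counting.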

Other observations

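Cirbp and Rbm3, RNA-binding proteins that respond to mild cold, were outside the lists above. Cirbp was at 192, 191 and 183 TPM in the Ctr samples, against 282, 448 and 206 TPM in the Sevo samples, with a log2 fold change of 0.65 ± 0.24 (SE, adjusted p = 0.209, limma). Every Sevo sample was above every Ctr sample, and replicate 2 was the highest. Rbm3 overlapped, with a log2 fold change of 0.05 ± 0.17 (SE). The 7 long RNAs that stay in the nucleus had a median log2 fold change of 0.02, with 0 lower and 0 higher at an unadjusted p under 0.05 (limma). Miat, which binds splicing factors, was at 152, 209 and 227 TPM in the Ctr samples and had a log2 fold change of -0.03 ± 0.28 (SE).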
